A study of Mus musculus with 24 samples.

Results

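The genes of prostaglandin production, sensing and breakdown were followed in the supporting cells of the mouse fetal gonad. The 10 genes were chosen by symbol: Ptgs1 and Ptgs2, Ptgds and Hpgds, Ptges, Ptges2 and Ptges3, Ptgdr and Ptger4, and Hpgd. All 10 were among the 32040 genes of the deposited tables, and 9 of them passed the filter on low counts that left 16190 genes for testing. Ptgdr did not pass. Bulk RNA sequencing had been done on polyadenylated RNA from cells sorted by fluorescence, as 24 libraries in 8 groups of 3. XX pre-granulosa cells, the precursors of ovarian granulosa cells, came from female fetal gonads of mice with genotype Tg(Enh8-mCherry). XY Sertoli cells, which line the testis cords, came from male fetal gonads of the SOX9-IRES-GFP genotype. Each cell type was taken at 1 of 4 stages named by embryonic day, E11.5, E12.5, E13.5 or E15.5, and the labels name no treatment. Sex, cell type, mouse line and fluorescent reporter change together, so their shares in a difference cannot be told apart. The labels do not say whether replicates came from separate embryos or pools, so p-values measure the spread between these samples, which may be technical.

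Prostaglandins are short-lived lipid signals made from arachidonic acid, which phospholipases free from membranes. The cyclooxygenases PTGS1 and PTGS2 turn it into prostaglandin H2, and terminal synthases turn that into prostaglandin D2 (PGD2), prostaglandin E2 (PGE2) and others, which act on membrane receptors and are then oxidised. In the fetal testis, PGD2 made by lipocalin-type PGD synthase is known as a product of Sertoli cells that acts alongside SOX9.

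Cell type labels were checked against marker genes, and values below are CPM (counts scaled to a common library size) unless TPM (the same with a correction for gene length) is named. The summed level of 7 Sertoli genes ran from 1481 to 8423 CPM in XY libraries and from 55.6 to 339.5 CPM in XX libraries. The summed level of 7 pre-granulosa genes ran from 309 to 1303 CPM in XX and from 3.04 to 72.5 CPM in XY. Libraries held 11275251 to 37256881 counts, with the 3 deepest in XY E11.5, and a count of 3, taken as the floor, stood for 0.0774 to 0.26 CPM. The 3 XX E11.5 libraries stood apart, with 7 erythroid genes at 2280.1 to 22725 CPM in sum against at most 710.4 CPM in all others. For 1 library, XX E13.5 replicate 1, a label field gives E12.5 while its title and description give E13.5, where it was kept.

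The largest difference between the sexes among the members was that of Ptgds, at up to 275-fold more in XY cells. At E11.5, 4 of the 9 tested members differed between XX and XY cells at an adjusted p under 0.05 (edgeR's quasi-likelihood test), 3 higher in XX and 1 in XY, where 42% of all tested genes did. At E12.5, 7 of 9 differed, 3 higher in XX, against a background of 62.1%. The count was 6 of 9 at E13.5, 4 of them higher in XX, beside 66.1% of all genes (also 6 without XX E13.5 replicate 1), and 7 of 9 at E15.5, 5 of them higher in XX, beside 69.4%. These shares lie near the background, with the widest gap at E12.5, where the share is above it. The family as a whole was therefore not clearly set apart by how many members differed. The median log2 difference of the 9 members, XX minus XY, was 0.89, 0.24, 0.69 and 0.50 at the 4 stages in order, where the median of all genes was 0.02, -0.01, 0.01 and 0.05. In all, 3 members kept 1 direction at every stage with a call at each, namely Ptgds higher in XY and Hpgds and Ptgs1 higher in XX. That holds for 2895 genes, or 17.9% of all tested.

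**Figure D1:**
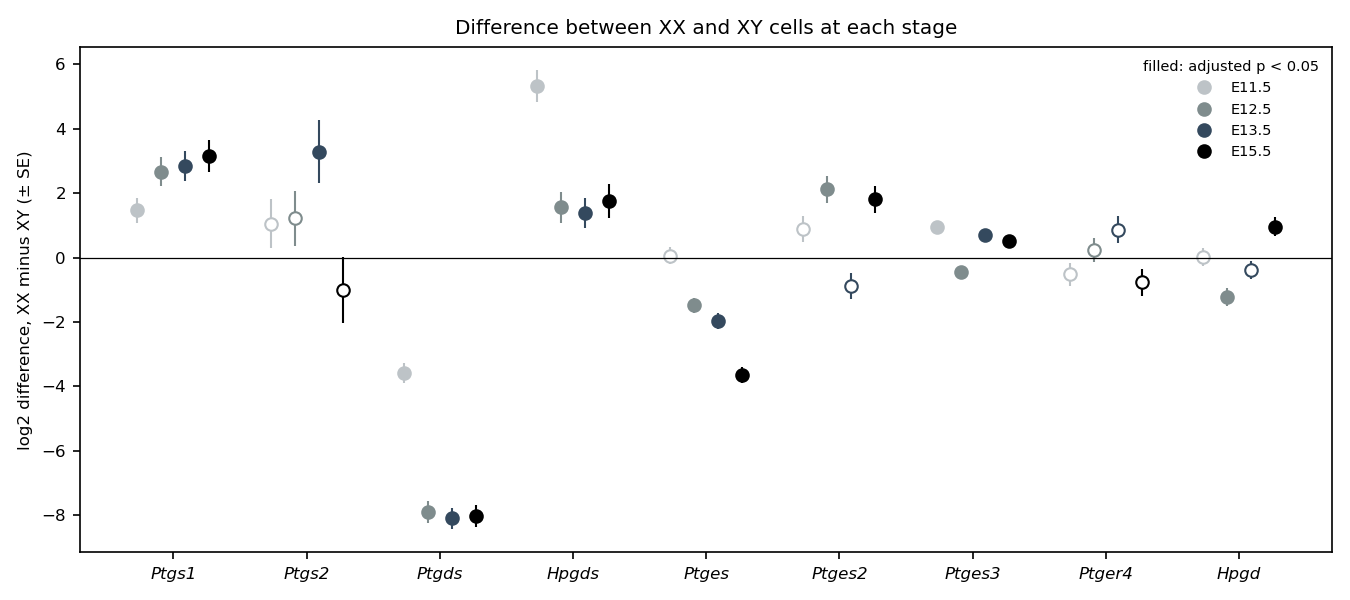
Log2 difference, XX minus XY, of the 9 tested members at 4 stages, with bars of 1 standard error (SE) and filled points for an adjusted p under 0.05. Ptgds lies far below 0 at every stage, down to -8.10, and Hpgds and Ptgs1 lie above 0 throughout.

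Of the cyclooxygenases, Ptgs1, which encodes the constitutive enzyme, was higher in XX cells at every stage. Ptgs1 stood at 6.73, 4.91 and 11.9 CPM in the 3 XX E11.5 libraries and at 2.23, 2.30 and 3.92 CPM in XY E11.5. It lay between 2.43 and 4.0 CPM in the 9 later XX libraries and between 0.112 and 0.992 CPM in the 9 later XY libraries. The sexes did not overlap at any stage, and replicate 3 was the highest of the XX E11.5 libraries. The log2 difference was 1.47 ± 0.38 (SE; adjusted p = 0.0041) at E11.5, 2.66 ± 0.44 (adjusted p = 2.5e-05) at E12.5, 2.85 ± 0.46 (adjusted p = 1.4e-05) at E13.5 and 3.17 ± 0.50 (adjusted p = 8.8e-06) at E15.5, by edgeR. At E11.5 the call was lost when only the compared libraries were fitted, with an adjusted p of 0.051, and on log2(TPM + 0.1) with limma, with an adjusted p of 0.06. From E11.5 to E12.5 Ptgs1 fell by 2.23 ± 0.44 on the log2 scale in XY (adjusted p = 0.00024) and by 1.03 ± 0.38 in XX (adjusted p = 0.042). The fall in XX lost its call on log2(TPM + 1) and log2(TPM + 0.1) (adjusted p = 0.091 and 0.33), with only the compared libraries (adjusted p = 0.10), with the replicate block (adjusted p = 0.056), and without any 1 of the XX E12.5 replicates, XX E13.5 replicate 1 or 3, or XX E11.5 replicate 3 (adjusted p = 0.051 to 0.26). Without the last of these it was by 0.61. That library also had the highest sum of 10 immune cell genes, 475 CPM, and the part of such cells in the Ptgs1 level was not tested. In bulk samples, fewer cells of a type and less RNA per cell cannot be told apart.

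Ptgs2, the inducible cyclooxygenase, was scarce, and the libraries of the sexes overlapped at 3 of the 4 stages. Its 3 XX E11.5 libraries read 10.7, 2.93 and 0.519 CPM, and those of XY E11.5 read 3.45, 0.929 and 2.48 CPM. At E13.5 the XX libraries held 1.93, 2.37 and 2.95 CPM and the XY libraries 0.387, 0.0398 and 0.322 CPM. Only at E13.5 were the sexes separate, with all XX libraries above all XY libraries. There the log2 difference was 3.29 ± 0.98 (adjusted p = 0.0058, edgeR), and it was not called by limma on log2(TPM + 1) (adjusted p = 0.082). At E11.5, E12.5 and E15.5 the differences were 1.05 ± 0.76, 1.22 ± 0.85 and -1.01 ± 1.02, with adjusted p of 0.28, 0.22 and 0.39 by edgeR. Within XX, Ptgs2 fell from E13.5 to 0.174, 0.0666 and 0.757 CPM at E15.5, a log2 change of -2.66 ± 0.96 (adjusted p = 0.047) that lost its call in 13 of the 24 fits that left out 1 library. Immediate-early genes respond within minutes to stimulation and to cell handling. They ranked the replicates as Ptgs2 did in XX E11.5, XX E12.5, XX E13.5, XY E12.5 and XY E13.5. In XX E15.5, XY E11.5 and XY E15.5 the order differed. The sum of 9 such genes was 7439, 4457 and 1327 CPM in XX E11.5, and ran from 8725 to 10814 CPM in XX E13.5 and from 4405 to 5499 CPM in XY E13.5. Its part in the Ptgs2 values was not tested.

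The PGD2 synthases were split by sex. Ptgds, which encodes the lipocalin-type enzyme, was higher in XY at every stage, while Hpgds, which encodes the haematopoietic enzyme found in mast cells, megakaryocytes and some macrophages, was higher in XX. Ptgds lies on chromosome 2 at chr2:25466709-25470046 (minus strand, GRCm38), and Hpgds on chromosome 6 at chr6:65117293-65144908 (minus strand).

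Sequences before the RefSeq starts of the 3 terminal synthase genes with the largest sex differences are shown because Ptgds and Ptges were both higher in XY from E12.5 while Hpgds was higher in XX. They are RefSeq sequences of GRCm38.p6, from 250 bases before the RefSeq start, 5′ to 3′ on the gene's strand, and stop before any exon of the GENCODE annotation, which leaves 157 bases for Ptgds and 72 for Hpgds. Capitals mark a core motif of SOX proteins, AACAAT or ACAAAG on either strand. The stretches lie at chr2:25469843-25469999 for Ptgds, chr2:30903298-30903547 for Ptges and chr6:65144909-65144980 for Hpgds, all on the minus strand. Those of Ptgds and Ptges lie within the longer GENCODE spans of these genes, since other transcripts there start further upstream.
Ptgds: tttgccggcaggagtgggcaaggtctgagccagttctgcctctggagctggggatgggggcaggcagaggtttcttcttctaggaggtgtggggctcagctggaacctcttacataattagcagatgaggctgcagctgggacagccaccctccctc
Ptges: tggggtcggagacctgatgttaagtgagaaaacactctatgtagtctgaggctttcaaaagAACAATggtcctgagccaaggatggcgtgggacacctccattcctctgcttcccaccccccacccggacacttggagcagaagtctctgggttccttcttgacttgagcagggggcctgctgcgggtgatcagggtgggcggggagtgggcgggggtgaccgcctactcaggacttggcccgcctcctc
Hpgds: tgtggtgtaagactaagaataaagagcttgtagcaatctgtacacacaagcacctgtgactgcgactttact
AACAAT begins 189 bases before the Ptges start, and neither motif was in the full window of the other 9 members. Of 32851 RefSeq promoters of the same length, 9.42% hold AACAAT, 16.5% hold ACAAAG and 24% hold at least 1 of them. A match is a description of letters and not of binding, and all 10 members had a window to search. GGGCGG, the core of a GC box, was in 5 of 10 windows and in 32.7% of all promoters, while TATAAA was in 0 of 10 and in 12.4% of all.

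Ptgds read 28.5, 32.8 and 17.0 CPM in the XY E11.5 libraries and 640.3, 589 and 620.1 CPM in XY E12.5. It reached 972, 870.0 and 886 CPM at E13.5 and 871, 871 and 939 CPM at E15.5. In XX it lay between 0.713 and 3.94 CPM over all 12 libraries. Every XY library was therefore above every XX library, and XY E11.5 lay between the XX level and the later XY level. The log2 difference, XX minus XY, was -3.60 ± 0.31 (adjusted p = 1.7e-08) at E11.5, or 12.1-fold, and -7.91 ± 0.34 (adjusted p = 7.3e-14) at E12.5, or 240-fold, by edgeR. It was -8.10 ± 0.34 and -8.04 ± 0.34 at the later stages, with adjusted p of 5.3e-14 at both. Between E11.5 and E12.5 Ptgds rose in XY by 4.56 ± 0.28 on the log2 scale (adjusted p = 4.8e-11, edgeR), or 23.6-fold. Neither later step in XY was called, though every XY E13.5 library lay above every XY E12.5 library. In XX no change across stages was called (adjusted p = 0.27). Amh, the Sertoli cell hormone gene, went from 26.3 ± 12 CPM (SD, n = 3) to 3841 ± 16 CPM over the same step in XY, while Sox9 read 1706 ± 465 and 2018 ± 185 CPM. In XX E11.5, replicate 2 had the highest Ptgds value and the lowest sum of Sertoli genes, 126 CPM, against 339.5 and 170.0 CPM in replicates 1 and 3.

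On the TPM scale, which allows levels of different genes to be compared, Ptgds stood at 60.4 ± 18.1 TPM (SD, n = 3) in XY E11.5 and was the 3166th most abundant of the 16190 tested genes. At E12.5 it was the 68th with 1297 ± 70.1 TPM, and at E13.5 and E15.5 it was the 36th and the 35th with 1919 ± 121 and 1924 ± 54.2 TPM. The last 2 levels overlapped between replicates. The 4 XX group means ran from 4.86 to 7.24 TPM, and neighbouring XX groups overlapped.

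Hpgds read 15.7, 6.42 and 28.2 CPM in XX E11.5 and 0.190, 0.361 and 0.679 CPM in XY E11.5. The later XX libraries lay between 1.30 and 3.94 CPM and the later XY libraries between 0.393 and 1.27 CPM. At each stage all XX libraries were above all XY libraries, though at E15.5 the lowest XX value was 1.30 and the highest XY value 0.651 CPM. The log2 difference was 5.33 ± 0.50 at E11.5 (adjusted p = 3.4e-08), then 1.56 ± 0.48 (adjusted p = 0.0076), 1.38 ± 0.45 (adjusted p = 0.011) and 1.76 ± 0.52 (adjusted p = 0.0048), by edgeR. On log2(TPM + 1) with limma the last was 0.76 with an adjusted p of 0.059. From E11.5 to E12.5 Hpgds fell in XX by 3.02 ± 0.44 on the log2 scale (adjusted p = 4.5e-05), or 8.09-fold. Any change across stages in XY had an adjusted p of 0.051.

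Like Hpgds, immune cell genes were highest in XX E11.5 and lower in XY than in XX. The summed level of 10 such genes (Ptprc, Cd53, Ctss, C1qa, C1qb, C1qc, Csf1r, Adgre1, Fcer1g and Tyrobp) was 295, 171 and 475 CPM in XX E11.5, which is the replicate order of Hpgds. The erythroid sum (9339, 2280 and 22725 CPM) and those of mast and megakaryocyte genes and of interstitial and steroidogenic genes had that order there too. The immune sum followed the replicate order of Hpgds in XX E15.5, but not in XX E12.5 or XX E13.5. All 10 immune genes were above the floor in every XX library, where their sum lay between 43.6 and 70.3 CPM after E11.5. In XY libraries the sum was 0.327 to 2.53 CPM, with Cd53 at 0 counts in 11 of 12 libraries and C1qa at 0 in 10 of 12. Of 7 genes of mast cells and megakaryocytes, the mast cell proteases were near absent in XX E11.5, with Mcpt4 at 0 counts and Cpa3 at no more than 0.843 CPM. The megakaryocyte genes differed there, with Pf4 at 8.98 to 17.0 CPM, Itga2b at 1.39 to 4.15 CPM and Ppbp at 0.0459 to 2.72 CPM. The sum of the 7, which includes Kit and Gata2, overlapped between the sexes, at 26.5 to 86.0 CPM in XX and 3.21 to 75.7 CPM in XY. The part of these cells in the Hpgds level was not tested.

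**Figure D2:**
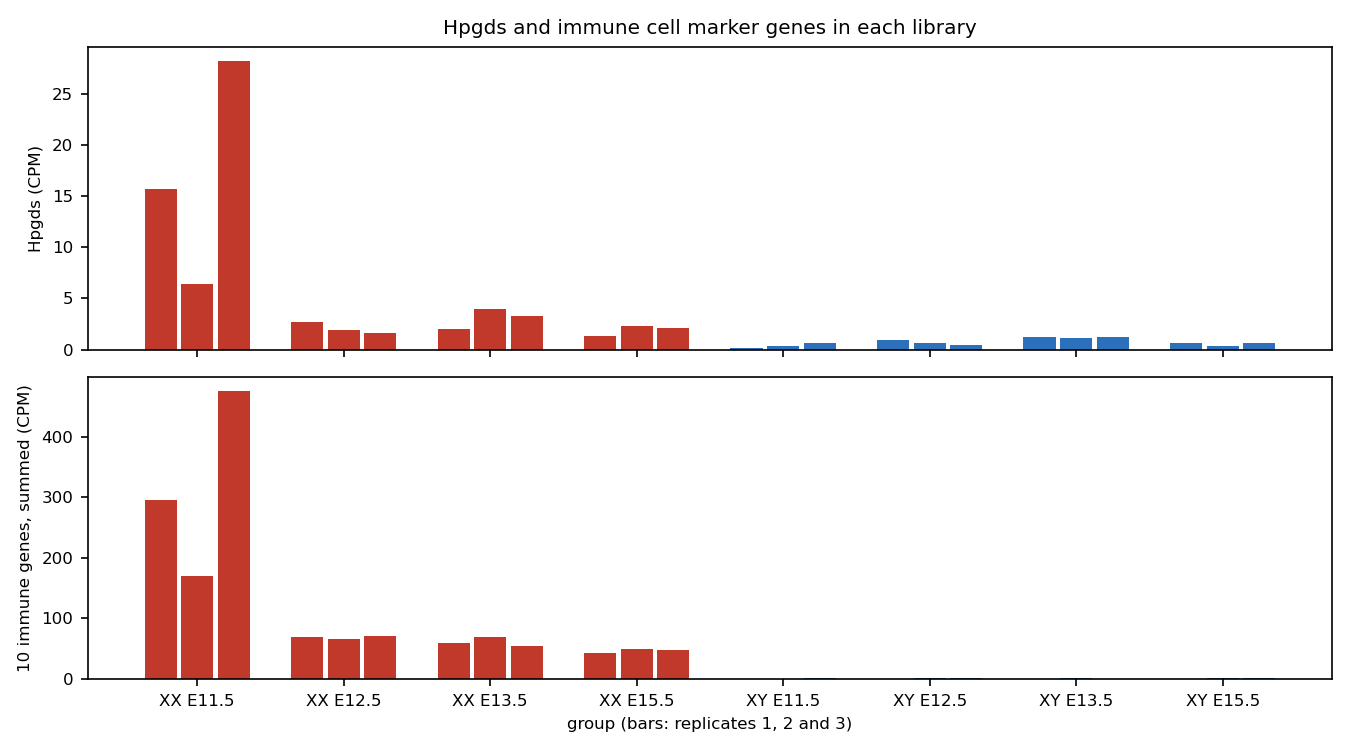
Hpgds (top, CPM) and the summed CPM of 10 immune cell genes (bottom) in each library, 1 bar per replicate, from 0. XX E11.5 has the tallest bars in both panels, 28.2 and 475 CPM in replicate 3, and the XY bars of the immune genes reach no more than 2.53 CPM.

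Counting only Ptgds and Hpgds, Ptgds made up at least 98.6% of the TPM in every XY library. In XX E11.5 its share was 30.7 ± 30.8% (SD, n = 3), from 5.82% to 65.1%, and from E12.5 on the XX means were 74.1 ± 8.43%, 71.8 ± 4.15% and 85.1 ± 6.48%. Even where Ptgds is low, in XX cells from E12.5, its TPM was above that of Hpgds in each library.

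The PGE2 synthases behaved differently from each other. Ptges, which encodes the inducible microsomal enzyme, was higher in XY cells at each later stage. Its XY libraries read 2.77, 4.13 and 3.45 CPM at E11.5, then 18.5, 16.7 and 22.8 CPM at E12.5, next 29.1, 27.1 and 25.8 CPM at E13.5, and lastly 56.4, 49.6 and 55.9 CPM at E15.5. The 4 XY stages did not overlap. In XX the 12 libraries lay between 2.03 and 8.64 CPM, and the sexes overlapped at E11.5 only. The log2 difference, XX minus XY, was 0.06 ± 0.26 at E11.5 (adjusted p = 0.87), -1.48 ± 0.24 at E12.5 (adjusted p = 1.6e-05), -1.98 ± 0.24 at E13.5 (adjusted p = 3.7e-07) and -3.65 ± 0.26 at E15.5 (adjusted p = 7.9e-11), by edgeR. The first rise in XY was 2.48 ± 0.24 (adjusted p = 3.4e-08) and the last 0.98 ± 0.23 (adjusted p = 0.0031) on the log2 scale, and the step between them was not called. Ptges also rose in XX in the first step, by 0.94 ± 0.26 (adjusted p = 0.0075, edgeR). That call was lost when only the compared libraries were fitted (adjusted p = 0.16) and without XX E12.5 replicate 2. Ptges lies at chr2:30889471-30929863 (minus strand, GRCm38).

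Ptges2, which encodes the other membrane-associated enzyme, went up and down between stages, and not in step in the sexes. Its XX libraries read 26.4, 57.4 and 46.8 CPM at E11.5, 23.9, 34.4 and 43.5 CPM at E12.5, 11.9, 13.3 and 8.46 CPM in XX E13.5 and 29.2, 33.1 and 41.1 CPM at E15.5. Its XY libraries read 9.05, 25.2 and 36.1 CPM at E11.5, 6.91, 6.43 and 10.1 CPM at E12.5, 10.8, 24.9 and 26.8 CPM in XY E13.5 and 12.54, 9.04 and 7.91 CPM at E15.5. XX E13.5 was thus the lowest XX group, and the replicates of XY E11.5 and of XY E13.5 were spread widely, with replicate 1 lowest in both. Ptges2 was higher in XX by 2.12 ± 0.42 on the log2 scale at E12.5 (adjusted p = 0.0002) and by 1.80 ± 0.42 at E15.5 (adjusted p = 0.0007), and the differences of 0.89 ± 0.39 at E11.5 and -0.89 ± 0.41 at E13.5 missed the threshold (adjusted p = 0.075 and 0.063). The first was called with the replicate block (adjusted p = 0.033) and when either replicate 1 of XX E11.5 or replicate 3 of XY E11.5 was left out (adjusted p = 0.034 and 0.017). The difference at E13.5 was called by limma on log2(TPM + 1) and log2(TPM + 0.1) (adjusted p = 0.043 and 0.038) and without XY E11.5 replicate 1 or XY E13.5 replicate 1 (adjusted p = 0.027 and 0.025). Within XX it fell by 1.58 ± 0.41 from E12.5 to E13.5 (adjusted p = 0.0061) and rose by 1.61 ± 0.42 to E15.5 (adjusted p = 0.0075). Within XY it fell by 1.59 ± 0.41 from E11.5 to E12.5 (adjusted p = 0.0032) and rose by 1.42 ± 0.42 to E13.5 (adjusted p = 0.023), a rise that was not called without XY E12.5 replicate 1 or 2 or XY E13.5 replicate 2 or 3 (adjusted p = 0.072 to 0.1).

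Ptges3, which encodes the cytosolic enzyme and HSP90 co-chaperone p23, was abundant in both sexes, the most abundant member by TPM in XX, and below Ptgds in XY from E12.5. Its group means ran from 527 ± 46.8 TPM (SD, n = 3) in XY E13.5 to 1309 ± 123 TPM in XX E11.5, between the 59th and the 289th most abundant tested gene. XX E11.5 libraries read 1445, 1471 and 1278 CPM, XX E12.5 libraries 688, 589 and 509.9 CPM, and the 12 XY libraries 548 to 895 CPM. XX was above XY at E11.5, E13.5 and E15.5 and below it at E12.5. The log2 differences in stage order were 0.95 ± 0.13 (adjusted p = 4.3e-06), -0.44 ± 0.13 (adjusted p = 0.0048), 0.69 ± 0.13 (adjusted p = 6.1e-05) and 0.50 ± 0.13 (adjusted p = 0.0013), by edgeR. The difference at E12.5 was lost by limma on log2(TPM + 1), at -0.22 (adjusted p = 0.12), and without XX E12.5 replicate 3 (adjusted p = 0.082) or XY E12.5 replicate 1 (adjusted p = 0.062). In XX it fell by 1.23 ± 0.13 in the first step (adjusted p = 2e-06) and rose by 0.74 ± 0.13 to E13.5 (adjusted p = 0.00018). A fall in XY of 0.39 ± 0.13 from E12.5 to E13.5 (adjusted p = 0.037) lost its call in 11 of the 24 fits that left out 1 library. A processed pseudogene, Ptges3-ps, is annotated but absent from the deposited count table, and sharing of Ptges3 reads with it was not tested.

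Because Ptges3 is so abundant, Ptges made up a small share of the TPM of the 3 PGE2 synthase genes. In XY that share went from 0.399 ± 0.0667% at E11.5 to 1.86 ± 0.424%, 3.50 ± 0.502% and 5.75 ± 0.743% at the following stages (SD, n = 3). In XX the means lay between 0.208% and 0.862%.

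**Figure D3:**
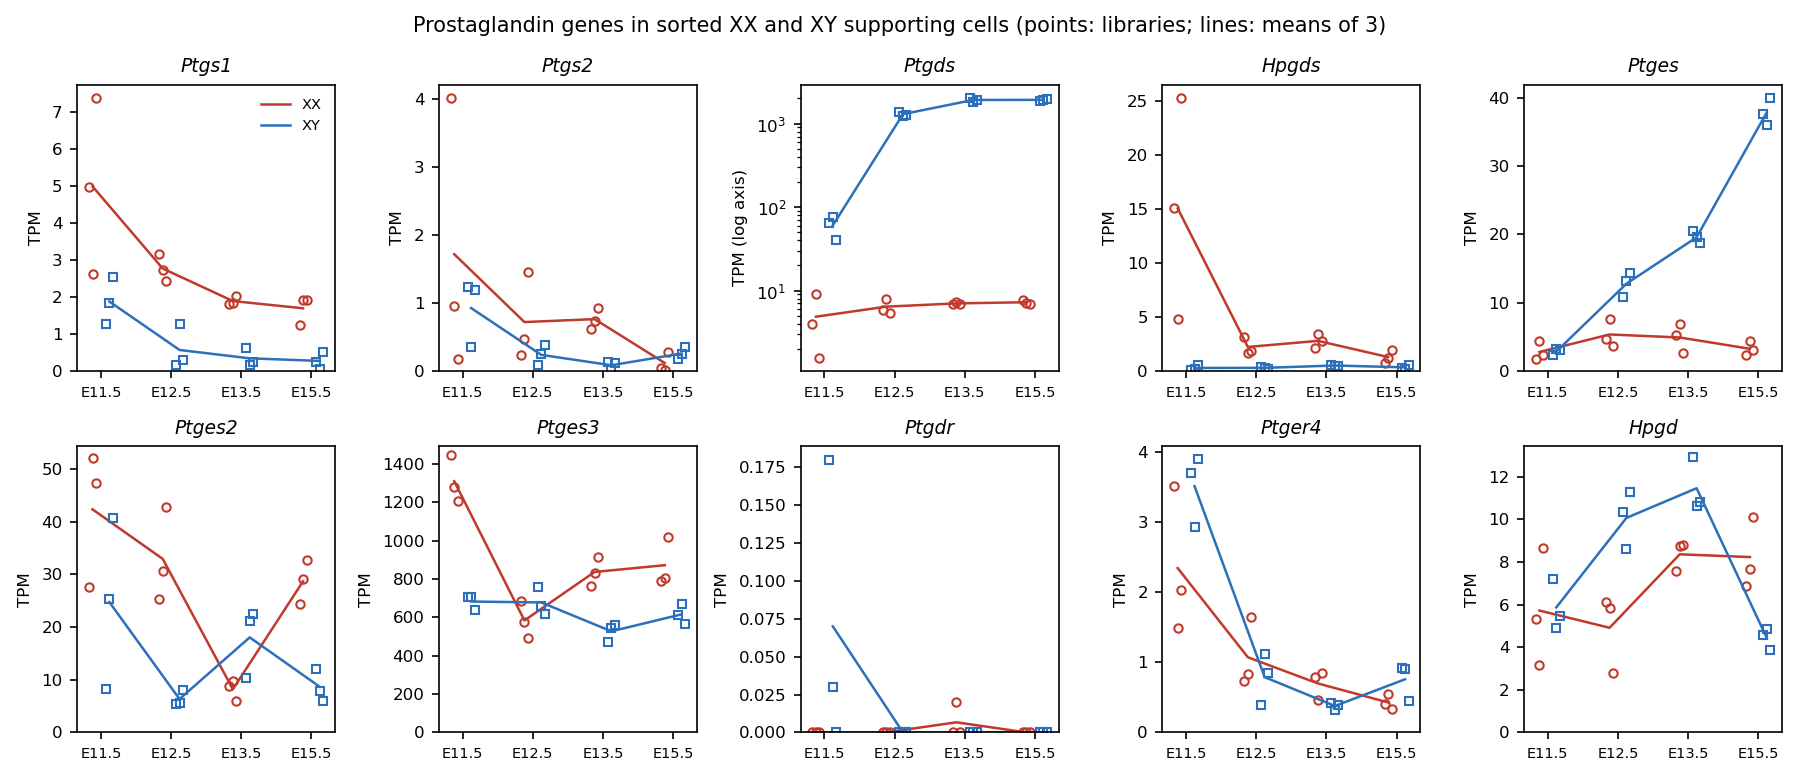
TPM of the 10 members by stage in XX (circles) and XY (squares), 1 point per library and lines through the means of 3, with a log axis for Ptgds. Ptgds and Ptges reach 1924 and 37.9 TPM in XY E15.5, Hpgds is highest in XX E11.5, and Ptgdr is at or near 0 throughout.

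The receptors of the set were scarce. Ptgdr, which encodes the PGD2 receptor DP1, had 13, 2 and 0 counts in XY E11.5, 1 count in XX E13.5 replicate 2 and 0 in all others. It was above the floor of 3 counts in 1 of 24 libraries, and was not detectable at this depth elsewhere. Its exons overlap those of the pseudogene Gm16976 over 22.1% of their length. Reads in the shared stretch cannot be assigned to 1 of the pair, since the use of strand is not given in the sources used here.

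Ptger4, which encodes the PGE2 receptor EP4, was highest at E11.5 in both sexes. It read 6.84, 3.39 and 4.28 CPM in XX E11.5 and 7.58, 5.76 and 7.47 CPM in XY E11.5, and lay between 0.757 and 3.34 CPM in the 18 later libraries. In CPM, E11.5 was above the later stages in each sex, and the sexes overlapped at every stage but E13.5. The gap in XX was narrow, 3.39 CPM in XX E11.5 replicate 2 against 3.34 CPM in XX E12.5 replicate 3. By TPM these 2 libraries overlapped, at 1.48 and 1.65. No difference between the sexes passed the threshold in the fit of all libraries, with adjusted p of 0.24, 0.6, 0.071 and 0.11 in stage order by edgeR and log2 differences of -0.52 ± 0.35, 0.24 ± 0.38, 0.87 ± 0.41 and -0.77 ± 0.42. That at E13.5 was called when only the compared libraries were fitted (0.89, adjusted p = 0.021) and without XX E12.5 replicate 3, XX E13.5 replicate 2 or XY E12.5 replicate 1 (adjusted p = 0.031 to 0.038). From E11.5 to E12.5 Ptger4 fell by 1.93 ± 0.37 in XY (adjusted p = 0.00017) and by 1.17 ± 0.37 in XX (adjusted p = 0.018), by edgeR. The call in XX was lost when only the compared libraries were fitted (adjusted p = 0.13). It was also lost without XX E11.5 replicate 1 or XX E12.5 replicate 1 or 2. The sum of 8 interstitial and steroidogenic genes fell over the same step, from between 634 and 664 to between 81.1 and 99.9 CPM in XY and from between 386 and 602 to between 192 and 292 CPM in XX. In XX the sum was back between 398 and 441 CPM at E15.5, where Ptger4 read 0.802 to 1.2 CPM. At least 7 of the 8 were above the floor in each of these libraries, and their part in the Ptger4 level was not tested. The exons of Ptger4 overlap a processed pseudogene, Gm15937, over 15.3% of their length.

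Hpgd, which encodes the enzyme that inactivates prostaglandins by oxidation, changed sides between stages. It read 11.53, 9.75 and 12.9 CPM in XY E12.5 against 5.94, 5.77 and 2.77 CPM in XX E12.5, and 5.03, 5.28 and 4.37 CPM in XY E15.5 against 8.16, 8.26 and 12.03 CPM in XX E15.5. XY was above XX without overlap at E12.5 and below it without overlap at E15.5. The log2 difference, XX minus XY, was 0.01 ± 0.28 at E11.5 (adjusted p = 0.98), -1.24 ± 0.28 at E12.5 (adjusted p = 0.00072), -0.39 ± 0.28 at E13.5 (adjusted p = 0.22, but 0.029 when only the compared libraries were fitted) and 0.96 ± 0.29 at E15.5 (adjusted p = 0.00555), by edgeR. Within XY, Hpgd rose by 0.97 ± 0.28 from E11.5 to E12.5 (adjusted p = 0.00553) and fell by 1.38 ± 0.29 from E13.5 to E15.5 (adjusted p = 0.0013). Within XX it rose by 1.0 ± 0.29 from E12.5 to E13.5 (adjusted p = 0.01).

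Counted by step in the fit of all libraries, more members were called between the first stages than later, as were more of all tested genes. From E11.5 to E12.5, 5 of 9 members were called in XX, 1 up and 4 down, against 34% of all genes, and 6 of 9 in XY, 3 up and 3 down, against 51.9%. When only the compared libraries were fitted, the XX count was 2, and it was 3 and 2 without XX E12.5 replicate 1 and 2. From E12.5 to E13.5 the counts were 3 of 9 in XX, 2 of them up, with a background of 31.7%, and 2 of 9 in XY, 1 up and 1 down, with a background of 16.6%. From E13.5 to E15.5 they were 2 of 9 in XX and 2 of 9 in XY, each 1 up and 1 down, beside 25.6% and 21.3% of all genes. The count in the last XX step was 1 without XX E13.5 replicate 1 or 2, XX E15.5 replicate 1, replicate 3 of XY E11.5, replicate 2 of XY E12.5, XY E13.5 replicate 1 or 3, or any 1 of the XY E15.5 replicates. That in the middle XY step was 0 without XY E12.5 replicate 2 or XY E13.5 replicate 2 or 3, and 1 without XX E12.5 replicate 2, XX E13.5 replicate 2, XY E12.5 replicate 1 or 3, XY E13.5 replicate 1 or any 1 of the XY E15.5 replicates. For XY these 2 later counts were 4 and 6 of 8 when only the compared libraries were fitted. Any change across the stages was called for 8 of 9 members in XX, all but Ptgds, where 74% of genes were called, and for 7 of 9 in XY, all but Hpgds and Ptges3, where 70.3% were called.

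The sex difference itself changed between stages for some members. From E11.5 to E12.5 it shifted toward XY for all 5 called members of 9 (background 40.1%), namely Ptgds by -4.31 ± 0.45 on the log2 scale, Hpgds by -3.76 ± 0.68, Ptges by -1.54 ± 0.35, Ptges3 by -1.39 ± 0.18 and Hpgd by -1.25 ± 0.40. The adjusted p of these were 2.5e-07, 0.00015, 0.0013, 3e-06 and 0.017 by edgeR. The call for Hpgd was lost on log2(TPM + 1) (adjusted p = 0.056, or 0.087 with all genes with a TPM above 0), on log2(TPM + 0.1) (adjusted p = 0.066), with only the compared libraries (adjusted p = 0.086), and without the third replicate of XX E11.5, XX E12.5 or XY E12.5, or the second of XY E11.5 (adjusted p = 0.053 to 0.10). From E12.5 to E13.5, 2 of 9 shifted (background 25.2%), Ptges2 by -3.01 ± 0.59 (adjusted p = 0.00089) and Ptges3 by 1.13 ± 0.18 (adjusted p = 0.00012). From E13.5 to E15.5, 5 of 9 shifted (background 25.8%), Ptges, Ptgs2 and Ptger4 toward XY and Ptges2 and Hpgd toward XX. Those were -1.67 ± 0.34 for Ptges (adjusted p = 0.0013), 2.69 ± 0.58 for Ptges2 (adjusted p = 0.0021) and 1.35 ± 0.40 for Hpgd (adjusted p = 0.016, but 0.059 without XX E15.5 replicate 3). The shifts of Ptgs2, -4.29 ± 1.41 (adjusted p = 0.03), and Ptger4, -1.63 ± 0.59 (adjusted p = 0.045), lost their calls in 6 and 13 of the 24 fits that left out 1 library. A sex-by-stage interaction over all stages was called for 6 of 9 members, beside 70.1% of all genes, and Ptgs1, Ptgs2 and Ptger4 missed it with adjusted p of 0.06, 0.069 and 0.051.

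The genes whose patterns were most like those of the members were taken by Pearson's r of log2(CPM + 1) over the 24 libraries, among 11166 genes at 10 CPM or more in a group. These are descriptions over libraries that share sex and stage. Ptgds was nearest to Cstdc1, Acp7 and Magec2, each with r = 0.993, and Cstdc1 for example averaged 0.563 to 1.68 CPM in the XX groups and 5.46, 41.3, 62.2 and 58.2 CPM in XY by stage. Hpgds was nearest to Nrros (0.957), Lcp2 (0.953) and Ms4a6b (0.953), and Nrros averaged 26.5 CPM in XX E11.5 and at most 4.41 CPM elsewhere. Ptges was nearest to Pla2g5 (0.970), Eif4ebp1 (0.968) and 1810055G02Rik (0.968). Ptges2 was nearest to Bag1 (0.978), Ypel3 (0.976) and Glrx5 (0.974), and Bag1 also dipped in XX E13.5, at 55.3 CPM between 171 and 162 CPM, and in XY E12.5, at 27.4 CPM between 117 and 72.3 CPM. Ptges3 was nearest to Ube2v2 (0.923), Tsn (0.911) and Brcc3 (0.897), and Hpgd less closely to Hfe (0.857), Ywhaz (0.816) and Rab18 (0.794).

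Other genes of the pathway were counted from a list of 36 phospholipases, synthases, reductases, receptors and transporters, of which 35 were in the table and 28 were tested. Between XX and XY, 13 of 28 differed at E11.5 (7 with more in XX; 42% of all genes), 22 at E12.5 (12 higher in XX; 62.1%), 20 at E13.5 (12 higher in XX; 66.1%) and 20 at E15.5 (11 higher in XX; 69.4%). These shares lie near the background, with the widest gap at E12.5, where the share is above it. Their median log2 difference was -0.10, -0.06, 0.33 and -0.12 in stage order. The secreted phospholipase gene Pla2g5, nearest in pattern to Ptges, averaged 10.3 ± 4.54, 67.5 ± 3.72, 88.0 ± 6.58 and 177 ± 6.32 CPM in XY by stage and 6.90 to 19.7 CPM in XX, with a log2 difference of -3.53 ± 0.25 at E15.5 (adjusted p = 8.9e-11). Pla2g6, a calcium-independent phospholipase gene, was also higher in XY from E12.5, by 2.22 ± 0.17 on the log2 scale at E13.5 (XX minus XY -2.22; adjusted p = 4.1e-10). Pla2g12a was higher in XX at E11.5 and E12.5, by 0.84 ± 0.22 (adjusted p = 0.0048, but 0.17 when only the compared libraries were fitted, and 0.31 with an adjusted p of 0.11 without XX E11.5 replicate 2) and 1.38 ± 0.23. Its later differences of -0.11 ± 0.22 and -0.37 ± 0.22 were not called, but that at E15.5 was with only the compared libraries (adjusted p = 0.005) and without XX E11.5 replicate 2 or 3 (adjusted p = 0.0096 and 0.046).

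Among other synthase genes, Gstm2 and Gstm7, glutathione transferases of the mu class, were higher in XY at every stage, with log2 differences as far as -2.94 ± 0.24 and -3.53 ± 0.16, both at E12.5. These mu class genes are similar in sequence, so the division of reads between them is uncertain. Akr1b3, an aldose reductase gene whose product can form prostaglandin F2α (PGF2α), was higher in XY at every stage, up to a difference of -2.21 ± 0.16 at E13.5. Ptgis, the prostacyclin synthase gene, was higher in XX at every stage, at E11.5 with an adjusted p of 0.0068 that was 0.074 when only the compared libraries were fitted, with 10.4 ± 1.38 against 1.29 ± 0.230 CPM at E12.5 and a largest difference of 3.34 ± 0.27 at E13.5 (adjusted p = 6.3e-10). Prxl2b, which encodes a PGF synthase, was higher in XX from E12.5, up to 1.79 ± 0.20 at E13.5.

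Among other receptor genes, Ptger3, Ptgfr and Ptger2 were low and differed between the sexes from E12.5. Ptger3, which encodes the PGE2 receptor EP3, averaged 2.90 ± 1.30, 4.01 ± 0.168, 6.18 ± 0.906 and 7.22 ± 0.965 CPM in XX by stage and 2.44 ± 0.893, 0.349 ± 0.284, 0.181 ± 0.0168 and 0.275 ± 0.202 CPM in XY. Its difference was 0.24 ± 0.39 at E11.5 (adjusted p = 0.65) and 5.04 ± 0.52 at E13.5 (adjusted p = 2.6e-08). Ptgfr, the PGF2α receptor gene, was at or under the floor in every XY library from E12.5, which puts XX at least 9.34-fold, 7.32-fold and 13.7-fold higher at these 3 stages in order, against a floor of 3 counts per library. Ptger2, which encodes the PGE2 receptor EP2, was higher in XY at those stages, with 1.70 ± 0.684 against 0.395 ± 0.261 CPM at E15.5 and a difference of -2.17 ± 0.62 (adjusted p = 0.004, edgeR). At E13.5 DESeq2 did not call it (adjusted p = 0.061), and the call was lost in 6 of the 24 fits that left out 1 library. The thromboxane receptor gene Tbxa2r was higher in XX at E11.5 by 0.62 ± 0.22 (adjusted p = 0.03, edgeR). That call was lost with only the compared libraries (adjusted p = 0.17), with no filter (0.059), by limma on log2(TPM + 0.1) (0.075), and in 4 of the fits that left out 1 library. At E13.5 Tbxa2r was not called in the fit of all libraries. It was called there, toward XY, by limma on log2(TPM + 1) (-0.43, adjusted p = 0.028) and with only the compared libraries (-0.48, adjusted p = 0.048). Tbxa2r was higher in XY at E15.5, at -2.22 ± 0.26 (adjusted p = 1.6e-07, edgeR). Pparg, the nuclear receptor gene for a PGD2 breakdown product, did not exceed the floor in XY E15.5 and was at least 7.91-fold higher in XX. Ptger1, the EP1 gene, differed at no stage in the fit of all libraries, with adjusted p of 0.6, 0.22, 0.17 and 0.096 in order by edgeR. The last difference was called without XX E15.5 replicate 1. Ptgir, the prostacyclin receptor gene, and Ptgdr2, which encodes the other PGD2 receptor, did not pass the filter, with at most 36 and 6 counts in any library.

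**Figure D4:**
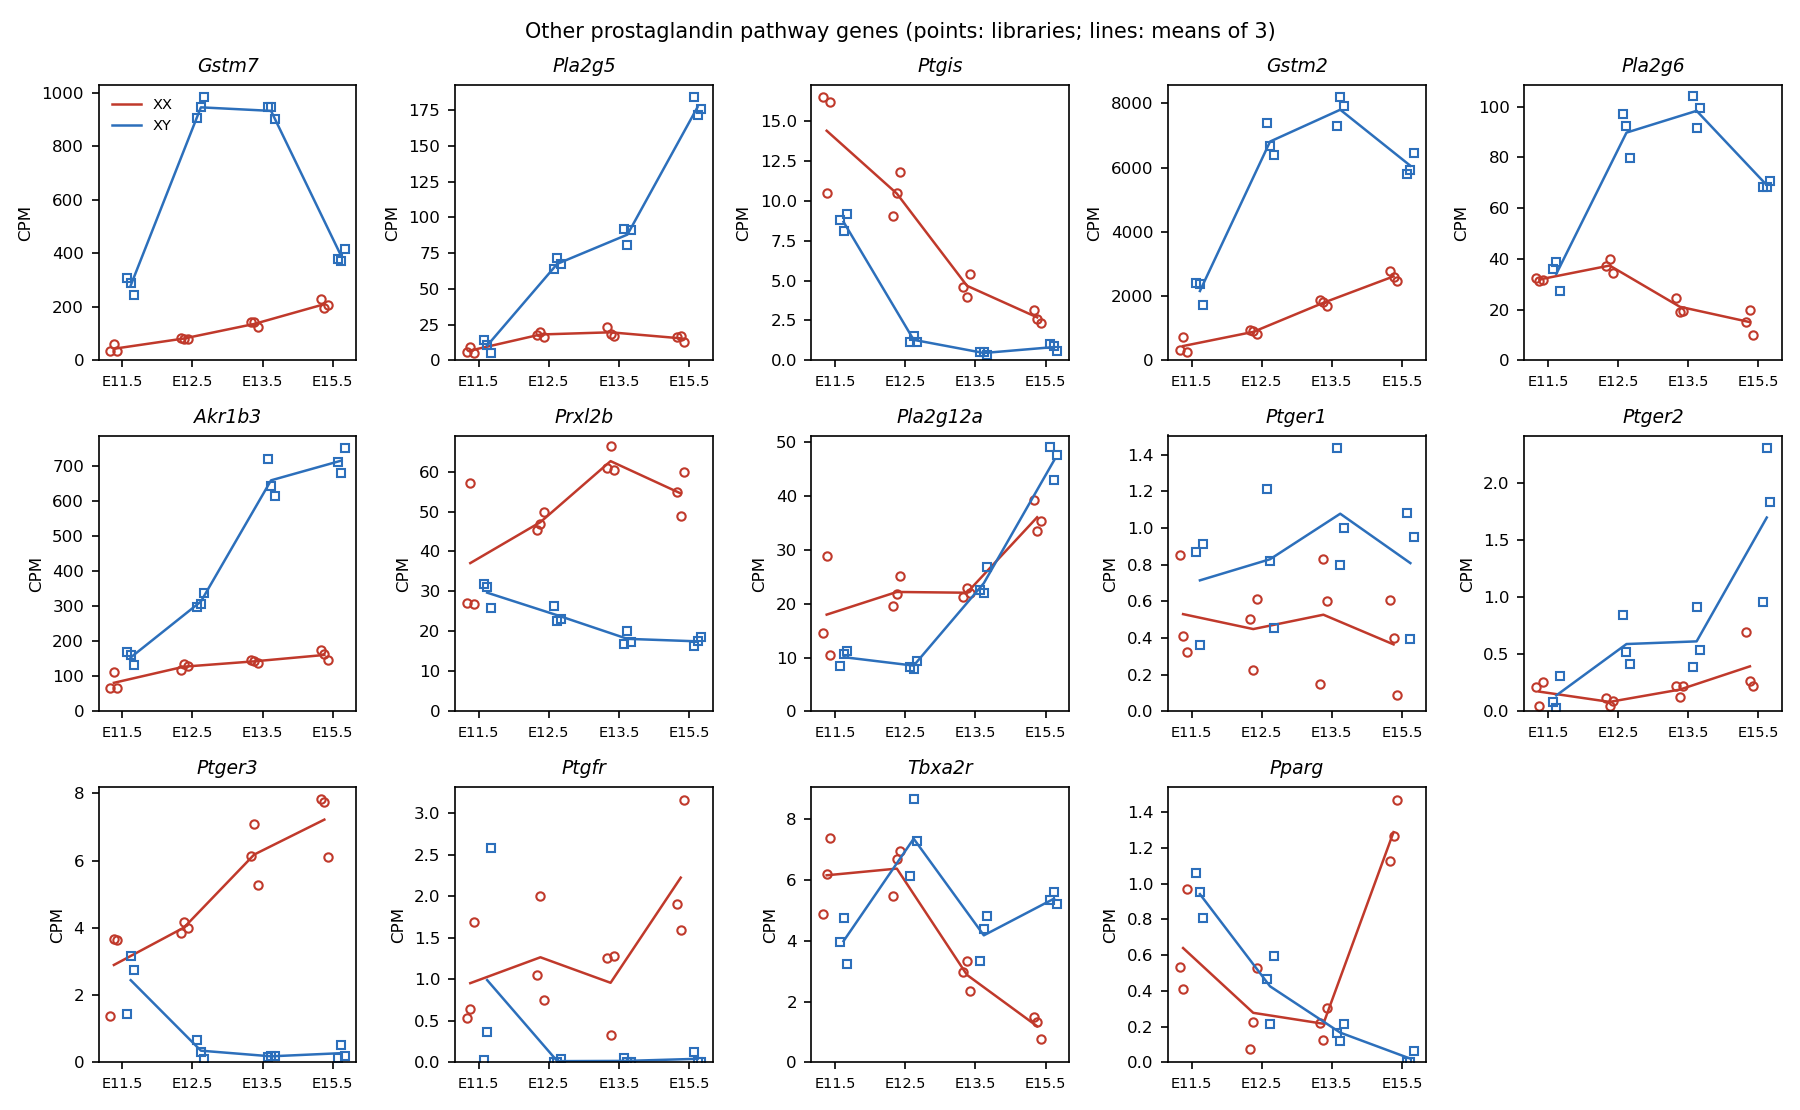
CPM of further pathway genes by stage in XX (circles) and XY (squares), 1 point per library and lines through the means of 3. Pla2g5 rises in XY to 177 CPM at E15.5 while Ptger3 rises in XX to 7.22 CPM, and the XY points of Ptgis lie below the XX points at every stage.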

How the data were processed

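Per the labels' protocols, polyadenylated RNA of sorted cells was made into libraries with a low-input kit that amplifies cDNA, and no molecular identifiers are described, so floors cover counting error only. The deposited estimated counts and TPM values per gene were made by the authors. Coordinates and gene models here are of GRCm38, and the build mm10 is named in the submitters' processing notes. The aligner, the counter and the use of strand are not given in the sources used here.

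Of the deposited estimated counts, 17.5% were not whole, and all were rounded before testing. The deposited TPM summed to between 938740 and 961696 per library. TPM served to compare levels between genes and in alternatives on the log2 scale. Counts were tested with edgeR 4.0.16 (R 4.3.3), using filterByExpr on the groups, TMM scaling and a robust quasi-likelihood fit of 8 group means (16 residual degrees of freedom). P-values were adjusted by Benjamini-Hochberg over all 16190 tested genes for each of 16 comparisons, with 0.05 as the threshold for a call. Each library was taken as a sample. Counts of replicate pairs differed beyond sampling noise (chi-square per degree of freedom 3.83 to 114), which does not tell biological from technical replicates.

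The 10 members and the gene lists were chosen with earlier results of these data known. All members are named. Other pathway genes named with values are the receptors and the 8 with the largest called XX minus XY difference among those at 10 CPM or more in a group. Likeness names the 3 nearest genes for members at 10 CPM or more. The markers of immune, erythroid, mast and megakaryocyte, endothelial, germ, interstitial and other cells were summed per library. Endothelial genes summed to between 32.0 and 67.7 CPM and germ cell genes to between 8.12 and 176 CPM over all libraries.

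Alternatives were DESeq2 size factors, DESeq2 1.42.0, other count filters, a replicate block, limma 3.58.1 on log2(TPM + 1) and log2(TPM + 0.1), a fit of only the compared libraries, and leaving out each library.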

Additional observations from a re-analysis of the deposited data

Results flagged for a closer look

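The difference between XX and XY cells was not the same at the 4 stages for 6 of the 9 tested members, by the sex-by-stage interaction test of edgeR with adjustment over all genes. The adjusted p was 1.13e-07 for Ptgds, 4.96e-05 for Hpgds, 2.46e-07 for Ptges, 0.000611 for Ptges2, 5.28e-06 for Ptges3 and 0.000631 for Hpgd. The form differs by gene. The Ptgds difference widened in XY between E11.5 and E12.5, that of Ptges widened up to E15.5, that of Hpgds narrowed after E11.5, and those of Ptges3 and Hpgd were called with both signs.

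Of the other pathway genes named, 12 met the same test. Phospholipase genes gave adjusted p of 3.14e-06 (Pla2g5), 2.74e-07 (Pla2g6) and 0.000145 (Pla2g12a). Synthase and reductase genes gave 1.18e-08 (Gstm7), 0.000897 (Gstm2), 1.34e-06 (Ptgis), 2.22e-05 (Akr1b3) and 0.000248 (Prxl2b). Receptor genes gave 3.15e-06 (Ptger3), 0.00434 (Ptgfr), 4.43e-06 (Tbxa2r) and 4.58e-05 (Pparg). Since 70.1% of all tested genes were called in this test, a call in it is common in these libraries.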

How the results depend on the processing

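Member results here were every XX minus XY difference, and the other comparisons only where called in the reported fit. Calls gained in uncalled steps were therefore not counted. Under alternatives other than leaving out a library, 713 of 771 values of these results kept their direction and side of the threshold. The others were 46 that lost the call, 5 that gained one and 7 that changed sign, 0 of them in a result called in the reported fit. Those 7 were small: the Hpgd difference at E11.5 was -0.016 with no filter beyond 1 count and -0.10 or -0.13 by limma on log2(TPM + 1) or log2(TPM + 0.1), and that of Ptges was -0.075 or -0.12, with the values on log2(TPM + 1) the same whether all genes with a TPM above 0 were kept or not. Among other pathway genes, the Ptgfr difference at E11.5 became 0.24 with the replicate block and 0.33 on log2(TPM + 0.1), and that of Tbxa2r at E12.5 became 0.0021 on log2(TPM + 1) and 0.0031 on log2(TPM + 0.1).

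Counts of called members moved most in the stage steps. With at least 10 counts in every library, which left 6 members, they were 2 for XX minus XY at E11.5, 3 at E13.5, 3 from E11.5 to E12.5 in XX and 5 for any change in XX. With no filter they were 1 from E13.5 to E15.5 in XX, 0 from E12.5 to E13.5 in XY (both member calls had an adjusted p just above 0.05, 0.057 for Ptges2 and 0.06 for Ptges3), and 3 for the change of the sex difference from E13.5 to E15.5. By limma on log2(TPM + 1) these 3 counts were 1, 1 and 3, on log2(TPM + 0.1) the second was 1, and with all genes with a TPM above 0 they were 1, 0 and 3, with 3 from E11.5 to E12.5 in XX. When only the compared libraries were fitted, the count was 2 from E11.5 to E12.5 in XX, and 4 and 6 in the later XY steps. The cause of these moves was not tested, beyond the fewer members that a stricter filter leaves.

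Leaving out 1 library in turn kept 2052 of 2136 values of the same member results, lost 69 calls, gained 7 and changed 8 signs. Calls gained in uncalled steps were again not counted. Counts ranged from 2 to 6 (XX, E11.5 to E12.5), 1 to 3 (XX, E13.5 to E15.5), 0 to 3 (XY, E12.5 to E13.5) and 3 to 5 (sex difference, E13.5 to E15.5). Differences that changed sign ran from -0.42 to 0.28 (Hpgd, E11.5), -0.33 to 0.34 (Ptges, E11.5), -0.38 to 1.57 (Ptgs2, E11.5), -0.18 to 0.62 (Ptger4, E12.5), -0.14 to 0.50 (Prxl2b, E11.5), -0.27 to 1.55 (Ptger2, E11.5), -0.040 to 0.56 (Ptger3, E11.5), -0.77 to 2.24 (Ptgfr, E11.5) and -0.033 to 0.69 (Pparg, E13.5).

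Deviations of same-numbered libraries correlated with a median r of 0.0029 (84 pairs, 15 over 0.1, highest 0.351). Those of other pairs had a median of 0.0035 (168 pairs, 27 over 0.1, highest 0.272). The replicate numbers thus showed no pairing by the medians, which cannot show pairing confined to some groups. With the replicate block, Ptges2 at E11.5 gained a call (0.95, adjusted p = 0.033), as did Tbxa2r at E13.5 (-0.54), while Ptgs1 from E11.5 to E12.5 in XX (-0.99) and the Ptger4 sex difference from E13.5 to E15.5 (-1.64) lost theirs. Depth limits what can be said of Ptgdr, Ptgs2 and the XY values of Ptgs1 and Hpgds, which lie near the floor in some libraries. The XY libraries held 7 to 33 counts of Hpgds.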
